A study of Zea mays with 54 samples.

Results

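The root response of the maize (Zea mays) genotype P415 to low phosphate (P) supply was taken from the 6 libraries that the labels assign to P415, of 54 libraries in the series. Of these 6, 3 came from roots at high P and 3 from roots at low P. The other 8 genotypes, EP1, F2, F160, F142, SF1, SM1, P024 and F7, had the same layout of 3 libraries at each P level. P415, F7 and P024 shared the second of 2 deposited count tables, with 18 libraries, and the other 6 genotypes made up the first, with 36. The labels give no transgene, breeding class, plant age, P concentration or length of treatment, and do not say whether a replicate was 1 plant or a pool. The p-values therefore measure library-to-library spread, part or all of which may be technical.

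Plants short of phosphate change root transcription through a largely systemic programme. Transcription factors of the PHR family, restrained by SPX proteins when phosphate is plentiful, switch on genes for high-affinity phosphate transporters, secreted acid phosphatases, enzymes that replace membrane phospholipids by galactolipids and sulfolipids, and non-coding RNAs that act on phosphate signalling. These roles are known mainly from Arabidopsis and rice. None of the 44146 nuclear gene models could be found in the RefSeq table used here, which lists identifiers of a later assembly, so the nuclear genes below are given by their identifiers and none is assigned a role. The 154 microRNA precursor features, which include zma-MIR827, a microRNA known for its induction by phosphate shortage, held 0 counts in all 54 libraries, so the tables carry no information on them.

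The P415 libraries held between 18009100 and 19631331 counts, within the range of 15585904 to 28733284 over all 54, and a count of 0 allowed a level of up to 0.189 CPM (read counts relative to library size, here with TMM factors of the 54 libraries together; the limit is 3 counts on that scale). Such limits cover counting error only. The biological coefficient of variation was 0.337 in P415, against 0.14 in SF1 and 0.599 in P024, the ends of the range. The leaf markers rbcL, psbA, psbD, psaA and psaB were at 0 counts in all 6 P415 libraries. All are plastid genes, and only 4 of 157 plastid features had any counts in P415, at most 9. These 0 counts therefore cannot check for leaf tissue. Nuclear root markers could not be checked, since their identifiers carry no names here. For each P415 library, genes under 0.2 CPM in the other 5 P415 libraries and at 5 CPM or more in all 6 libraries of another genotype were looked up, and at most 1 of 136 such genes (0.735%) was above 1 CPM.

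The library labelled low P 2 stood apart from the other 5. It lay at 97.8 on the first principal component, which held 38.7% of the variance, while the other libraries lay between -41.1 and 26.6. Of the tested genes, 534 differed at least 4-fold between low P 2 and the other low P libraries, of which 237 were higher and 297 lower, against 198 for low P 1 and 167 for low P 3. Over genes called higher at low P in all 6 genotypes of the first table, named common low P genes below, the median difference from the P415 high P mean was 0.225, 0.742 and 0.522 on the log2(CPM + 0.5) scale in low P 1, 2 and 3. All 3 low P libraries were thus above all 3 high P libraries, which lay between 0.0014 and 0.0118. The same median was between 1.21 and 1.92 in the 18 low P libraries of the first table, so no P415 library reached the lowest of them. In the second table it was between 0.566 and 0.911 in F7 and between 0.106 and 0.816 in P024, and the P415 libraries overlapped with both. The first-table libraries chose these genes for their rises, which lifts their own medians. Genotype and table also cannot be told apart in that comparison.

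**Figure D1:**
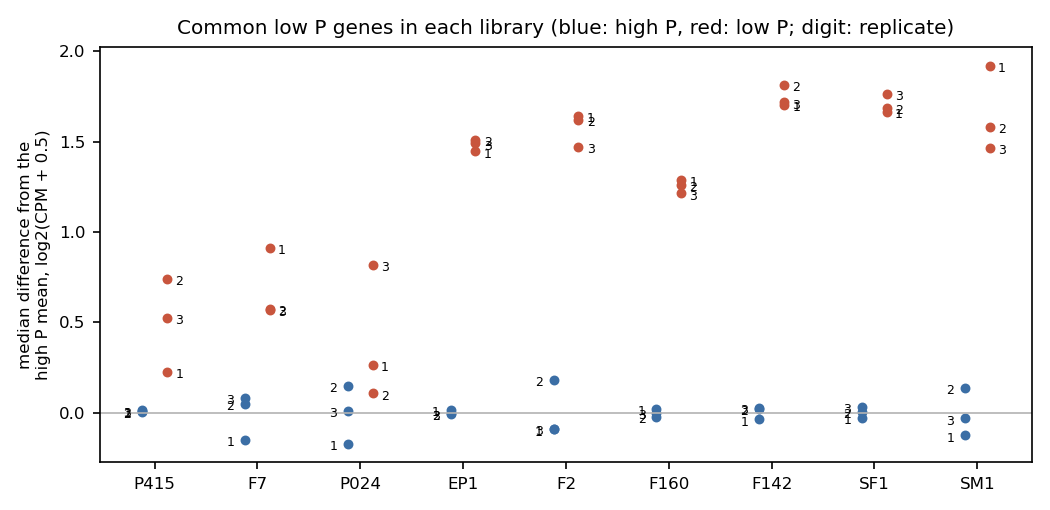
Median difference of 960 common low P genes from the high P mean of the same genotype (vertical axis, log2(CPM + 0.5)) in each of 54 libraries, by genotype (horizontal axis); blue points are high P, red points low P, and digits are replicate numbers. The P415 low P libraries sit at 0.225, 0.742 and 0.522, below the lowest low P library of the first table at 1.21. The first-table libraries chose these genes for their rises, which lifts their medians.

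Low P raised 49 of 23962 tested genes in P415 (0.204%) and lowered 0 (edgeR quasi-likelihood test, Benjamini-Hochberg adjusted p under 0.05). At an unadjusted p under 0.05 there were 783 higher (3.27%) and 489 lower genes (2.04%). In each of the 49 all 3 low P libraries were above all 3 high P libraries, an order found for 4.81% of tested genes. The log2 fold changes of the 49 ran from 1.23 to 11.58 with a median of 3.37, beside a median of 0.01 over all tested genes. At least 8-fold rises made up 31 of the 49, and at least 16-fold rises 17. The number of calls moved widely with the method and with the libraries used. DESeq2 called 272 genes higher (0.967%) and 51 lower (0.181%), the joint edgeR model of 54 libraries called 284 (0.956%) and 33 (0.111%), and leaving out high P 1, 2 or 3 left 1, 2 or 2 calls.

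Some of the 49 genes were switched on from close to nothing: 10 had a high P mean under 0.5 CPM. Zm00001d031428 had 0.177, 0.187 and 0.181 CPM in the high P libraries and 165, 183 and 125 CPM in the low P libraries. Its log2 fold change was 9.70 ± 0.30 (approximate SE, n = 3 per group, edgeR adjusted p = 7.52e-05), and it was the only named gene that kept its call without any 1 of the 6 libraries. Both groups were tight, and at low P it reached a mean of 76.4 FPKM (counts scaled by gene length and library size, as deposited).

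Zm00001d021047 had 0 counts in all 3 high P libraries and 11.3, 38.1 and 20.5 CPM at low P. Against 3 counts over the whole high P group its low P mean was at least 385-fold higher (edgeR adjusted p = 0.0373). Zm00001d024600 had 0.118, 0.125 and 0 CPM at high P against 18, 104 and 45.4 CPM at low P. Its groups were far apart, but its low P libraries differed widely among themselves, with low P 2 the highest. The fitted log2 fold change was 9.30 (edgeR adjusted p = 0.0237).

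Zm00001d005742 rose from 0.236, 0.374 and 0 CPM to 47.2, 80.5 and 43.7 CPM, a log2 fold change of 8.09 ± 0.65 (edgeR adjusted p = 0.0152). Zm00001d033047 had 0.059, 1.12 and 0.422 CPM at high P against 52.1, 98.5 and 64.3 CPM at low P, a log2 fold change of 7.06 ± 0.70 (edgeR adjusted p = 0.0211). In both genes low P 2 was the highest library, and the lowest low P library was far above the highest high P library. Zm00001d029776 went from 0.295, 0.187 and 0.181 CPM to 8.65, 6.18 and 26.5 CPM (log2 fold change 5.91 ± 0.74, edgeR adjusted p = 0.0408). Here low P 3 was the highest library and low P 2 the lowest of its group.

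Other genes of the 49 were already active at high P; 20 had a high P mean of at least 10 CPM. Zm00001d011734 had 16.6, 6.36 and 17.5 CPM at high P against 284, 642 and 278 CPM at low P (log2 fold change 4.88 ± 0.55, edgeR adjusted p = 0.029). Zm00001d031875 had 15.7, 15.9 and 24.7 CPM against 184, 672 and 246 CPM (log2 fold change 4.28 ± 0.55, edgeR adjusted p = 0.0445). In both genes low P 2 was far above the other low P libraries, and no low P library came near the high P range. Zm00001d042935 had 33.1, 19.8 and 20.5 CPM at high P against 352, 387 and 258 CPM at low P (log2 fold change 3.76 ± 0.31, edgeR adjusted p = 0.0153). Per length it was the most abundant of the 49 at low P, with a mean of 449 FPKM, ahead of Zm00001d011734 with 406 FPKM and Zm00001d043621 with 312 FPKM. Zm00001d008600 followed with 209 FPKM and Zm00001d031875 with 195 FPKM.

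Zm00001d046834 had 4.01, 2.49 and 5.36 CPM at high P against 64.3, 86.5 and 65.1 CPM at low P (log2 fold change 4.18 ± 0.32, edgeR adjusted p = 0.0137). Zm00001d045030 had 5.55, 1.87 and 6.03 CPM against 51.7, 69 and 51.1 CPM (log2 fold change 3.67 ± 0.44, edgeR adjusted p = 0.0342). Low P libraries of both genes lay close together and low P 2 was again the highest. Zm00001d021656 rose from a mean of 4.13 ± 1.25 to 61.6 ± 33 CPM (SD, n = 3) and Zm00001d043598 from 4.41 ± 1.41 to 63.2 ± 29.2 CPM. Each had an edgeR adjusted p of 0.029.

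The remaining named rises were in genes of low level at high P. Mean levels went from 0.3 ± 0.151 to 9.6 ± 2.59 CPM in Zm00001d003990, from 0.162 ± 0.0382 to 4.9 ± 1.75 CPM in Zm00001d047830 and from 0.341 ± 0.0837 to 9.99 ± 6.27 CPM in Zm00001d000986 (SD, n = 3). They went from 0.12 ± 0.0574 to 3.33 ± 0.781 CPM in Zm00001d041226 and from 0.502 ± 0.139 to 12.8 ± 5.72 CPM in Zm00001d016301. With the replicate number as a block, a pairing that the data do not settle, 49 genes were called, 33 of them among the 49 without the block. The other 16 then had edgeR adjusted p between 0.0539 and 0.0966. Among the 20 named rises, Zm00001d011734, Zm00001d000986, Zm00001d041226 and Zm00001d045030 missed the threshold, with edgeR adjusted p of 0.0587, 0.0539, 0.0558 and 0.0539.

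The smallest called rises, those of Zm00001d042512 and Zm00001d018595, were tight, as a small rise has to be to pass with 3 libraries a side. The genes of this paragraph were chosen after their values were seen. Zm00001d042512 had 69.4, 67.2 and 71.8 CPM at high P against 160, 171 and 159 CPM at low P (log2 fold change 1.23 ± 0.16, edgeR adjusted p = 0.0496). Zm00001d018595 had 25.4, 28.4 and 26.5 CPM against 76.3, 64.4 and 71.6 CPM (log2 fold change 1.40 ± 0.16, edgeR adjusted p = 0.0307). With the replicate block their edgeR adjusted p were 0.0966 and 0.0658. In neither gene was low P 2 far from the other low P libraries. A larger and less even rise, that of Zm00001d022669, went from 8.62, 11.7 and 8.8 CPM to 138, 74.6 and 87 CPM (log2 fold change 3.37 ± 0.30, edgeR adjusted p = 0.0204). Here low P 1 was the highest and low P 2 the lowest of its group.

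**Figure D2:**
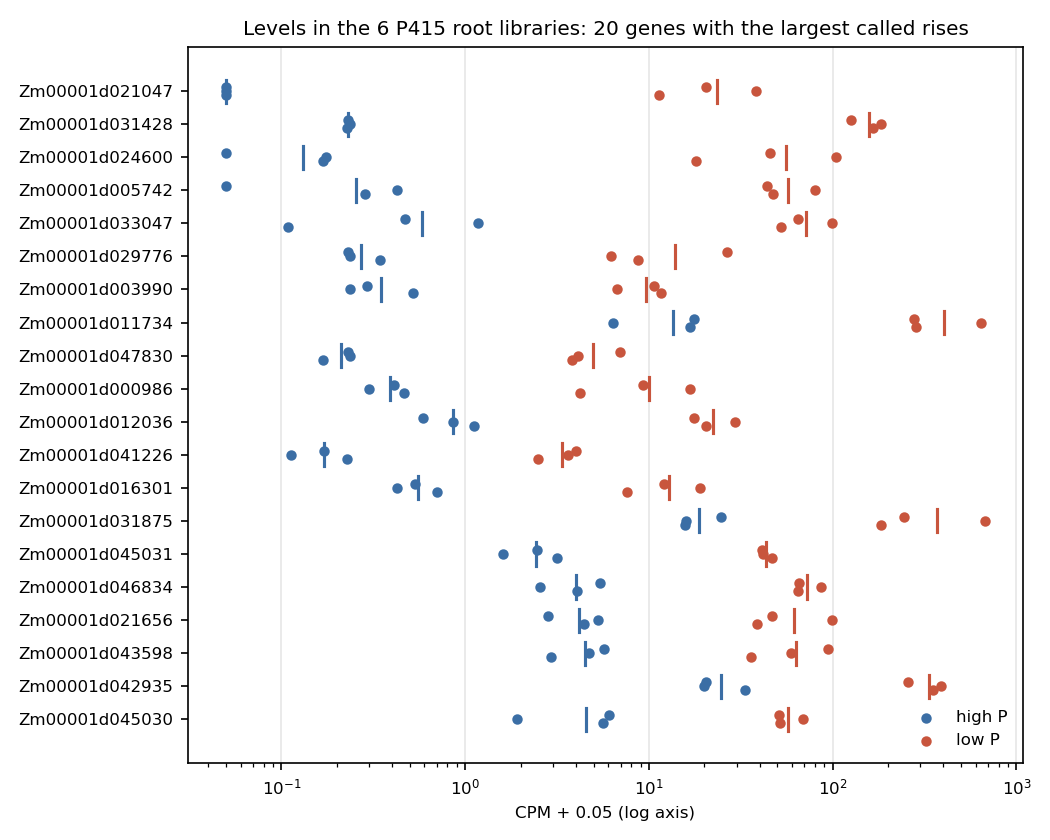
Level in each P415 library (horizontal axis, CPM + 0.05, log axis) of the 20 genes with the largest called rises and a mean of at least 1 CPM (vertical axis); points are libraries and bars are group means, blue for high P and red for low P. No gene overlaps between the groups, which the naming rule required. Zm00001d031428, for instance, had 0.177 to 0.187 CPM at high P against 125 to 183 CPM at low P.

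Low P 2 was the highest low P library in 37 of the 49 genes. Without it 62 genes were called in P415, 59 higher and 3 lower, and 46 of the 49 kept their call. The exceptions were Zm00001d003365, Zm00001d037115 and Zm00001d038724. Without low P 3, 15 were called, and 14 of the 49 kept their call. What sets low P 2 apart was not tested.

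The genes that rose in P415 also rose nearly throughout the other genotypes. Of the 49, 48 of 48 tested were called higher in EP1 (21.1% of all tested genes were called higher there), 48 of 49 in F2 (16.1%), 48 of 49 in F160 (13.3%), 47 of 48 in F142 (25.8%), 47 of 49 in SF1 (28.1%) and 48 of 49 in SM1 (17.3%). In F7, from the same table as P415, 45 of 47 were called higher (10.9%), and 46 without the library F7 low P 2. In P024, where 0 of 23864 genes were called, 48 of the 49 had a positive log2 fold change. None of the 49 was called lower in any genotype, while the share of all tested genes called lower was highest in SF1 (26.8%) and F142 (24.5%), followed by EP1 (21.7%), SM1 (15.7%), F2 (14.2%), F7 (12.1%), F160 (9.48%) and P024 (0%). Of the 49, 42 were called higher in 7 other genotypes, 3 in 6, 3 in 5 and 1 in 4.

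Most of these rises were larger in the first-table genotypes than in P415. In F7, 25 were larger and 22 smaller than in P415, and in P024 all 49 were smaller. The median log2 fold change of the 49 was 3.37 in P415, and in the first table it was 3.67 in F160, 3.97 in F2, 4.26 in EP1, 4.51 in SF1, 4.72 in SM1 and 5.43 in F142. It was 3.61 in F7 and 1.57 in P024. Of 47 genes tested in all 6 first-table genotypes, 34 rose by less in P415 than their mean there and 13 by more. In the joint edgeR model the P415 response differed from the mean of those 6 for 15 of the 49, with 14 more negative and 1 more positive (background 3.43% and 2.5%). Against the mean of F7 and P024 it was more negative for 0 and more positive for 5 (background 1.15% and 1.11%). P415 libraries both chose the 49 genes and enter these contrasts, which are given as a description, and P415 and the first-table genotypes also differ in count table, so genotype and table cannot be told apart there.

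**Figure D3:**
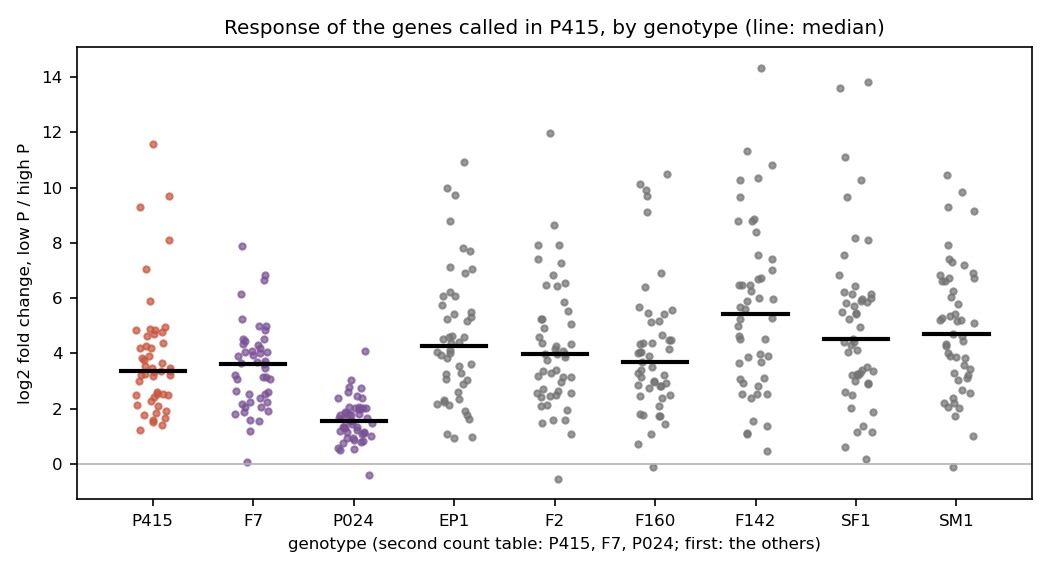
Log2 fold change of low P against high P (vertical axis) for the 49 genes called in P415, in each of 9 genotypes (horizontal axis); points are genes and black lines are medians. The median is 3.37 in P415, from 3.67 to 5.43 in the first-table genotypes, 3.61 in F7 and 1.57 in P024.

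Zm00001d020589 had the most reduced response among the called genes. It had 1.71, 2.87 and 1.63 CPM at high P against 24.3, 27.6 and 17.7 CPM at low P in P415 (log2 fold change 3.49 ± 0.32, edgeR adjusted p = 0.0206). P415 groups were well separated, yet first-table means were 0.0138 to 0.675 CPM at high P against 164 to 374 CPM at low P, so P415 was above all 6 at high P and below all 6 at low P. The contrast of its response with the mean of the other 8, as a difference of log2 fold changes, was -5.20 ± 0.84 (joint edgeR model, adjusted p = 0.000298). Against F7 and P024 the contrast was -0.59 (joint edgeR model, adjusted p = 0.823). Levels across the tables were scaled together here.

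Another 6 of the 49 also had a response below the mean of the other 8, and were chosen after their values were seen. The difference was -2.78 for Zm00001d043621, which had 28.3, 26.7 and 26.2 CPM at high P against 253, 457 and 187 CPM at low P in P415 (joint edgeR model, adjusted p = 0.00186). It was -2.07 for Zm00001d040014 and -1.79 for Zm00001d022493 (joint edgeR model, adjusted p = 0.00625 and 0.000366). For Zm00001d043291, Zm00001d018595 and Zm00001d042512 it was -1.09, -0.70 and -0.97 (joint edgeR model, adjusted p = 0.0472, 0.0456 and 0.00191). The differences of Zm00001d043291 and Zm00001d018595 missed the threshold with any 1 P415 replicate number left out (joint edgeR model, adjusted p between 0.0613 and 0.27), and that of Zm00001d040014 without replicate 1 (joint edgeR model, adjusted p = 0.144). All 6 still rose in P415 without overlap. With the replicate block the call within P415 was lost for Zm00001d043291 (edgeR adjusted p = 0.0587), as for Zm00001d018595 and Zm00001d042512. Against F7 and P024 none of the 6 passed, and the sign turned for all but Zm00001d042512, with 0.70 for Zm00001d043621, 1.54 for Zm00001d040014 and 0.33 for Zm00001d022493. Taken against F7 alone, Zm00001d042512 passed with -0.99 and Zm00001d040014, in the other direction, with 1.76 (joint edgeR model, adjusted p = 0.00382 and 0.0249). The rest of the 6 did not pass, with differences from -0.64 to -0.39. The 1 gene whose P415 response was more positive than the first-table mean was Zm00001d003365, with 0.059, 0.125 and 0.0603 CPM at high P against 1.78, 2.38 and 1.38 CPM at low P. Its log2 fold change was 4.39 in P415 and 1.62 on average in the first table, and it was also called higher in F7. With the replicate block it missed the threshold (edgeR adjusted p = 0.0703).

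Zm00001d045031 went the other way in level. In P415 it had 3.13, 1.56 and 2.41 CPM at high P against 46.7, 42 and 41 CPM at low P (log2 fold change 4.18 ± 0.29, edgeR adjusted p = 0.0137). The low P libraries of P415 were nearly equal and stood above the low P means of the first table, which ran from 0.0986 to 3.91 CPM, of F7 at 1.29 CPM and of P024 at 2.72 CPM. It was called higher in 5 of the 6 genotypes where it was tested. The contrast of its response with the other 8 was -0.67 (joint edgeR model, adjusted p = 0.737).

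Zm00001d012036 was the gene called in the fewest other genotypes. In P415 it had 1.06, 0.811 and 0.542 CPM at high P against 20.3, 29.2 and 17.5 CPM at low P (log2 fold change 4.78 ± 0.36, edgeR adjusted p = 0.0137). It was also called higher in EP1 (log2 fold change 7.81), SM1 (7.93), F142 (2.51) and F7 (4.07). In F2, F160 and SF1 its log2 fold changes were -0.53, -0.13 and 0.18, and none was called. Zm00001d001860 rose in P415 from 15.4, 9.29 and 11.1 CPM to 47.5, 38.9 and 49.8 CPM (log2 fold change 1.93 ± 0.25, edgeR adjusted p = 0.0445). Its log2 fold changes in F7 and P024 were 0.08 and -0.39, and it was 1 of the 5 genes whose P415 response was more positive than the mean of these 2. It was chosen after its values were seen.

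The common low P genes were chosen without P415 libraries, as the 1013 genes called higher at low P in all 6 first-table genotypes. In P415, 960 were tested; the other 53 had a mean of at most 1.41 CPM there, and 5 of them had 0 counts. Of the 960, 43 were called higher (4.48%) and 0 lower, beside a background of 0.204% higher and 0% lower over all tested genes. These 43 were 87.8% of the 49 genes called in P415. All low P libraries lay above all high P libraries for 329 of the 960 (34.3%, background 4.81%), and a positive log2 fold change for 807 (84.1%, against 51.2% of all tested genes).

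The common genes had smaller fold changes in P415 than in the first table. Their median log2 fold change was 0.53 (quartiles 0.17 and 1.07), against 1.67 (1.15 and 2.40) for the mean of the 6 genotypes that chose them and 0.01 for all tested genes in P415. A P415 fold change of at least 2-fold was measured for 264. Of the 960, 920 (95.8%) had a smaller log2 fold change in P415 than the mean of the 6. These 6 chose the genes for their rises, which lifts their side of the comparison. In the other genotypes of the second table, which did not choose them either, the median was 0.84 in F7, with 374 of 972 called higher and 50 lower, and 0.44 in P024, with 0 of 968 called. The response of P415 was more negative than the mean of F7 and P024 for 23 of the 960 common genes and more positive for 21 (background 1.15% and 1.11%).

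The order of the common genes by size in the first table carried over to P415. Among 171 genes with a mean log2 fold change under 1 in the 6, the P415 median was 0.19 and 0 were called. Among 437 between 1 and 2 it was 0.43 with 4 called, and among 204 between 2 and 3 it was 0.84 with 5 called. The median was 1.5 among 63 genes between 3 and 4, of which 4 were called (6.35%), and 2.99 among 85 genes of at least 4, of which 30 were called (35.3%). The calls of P415 were therefore mostly among the genes with the largest rises elsewhere.

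**Figure D4:**
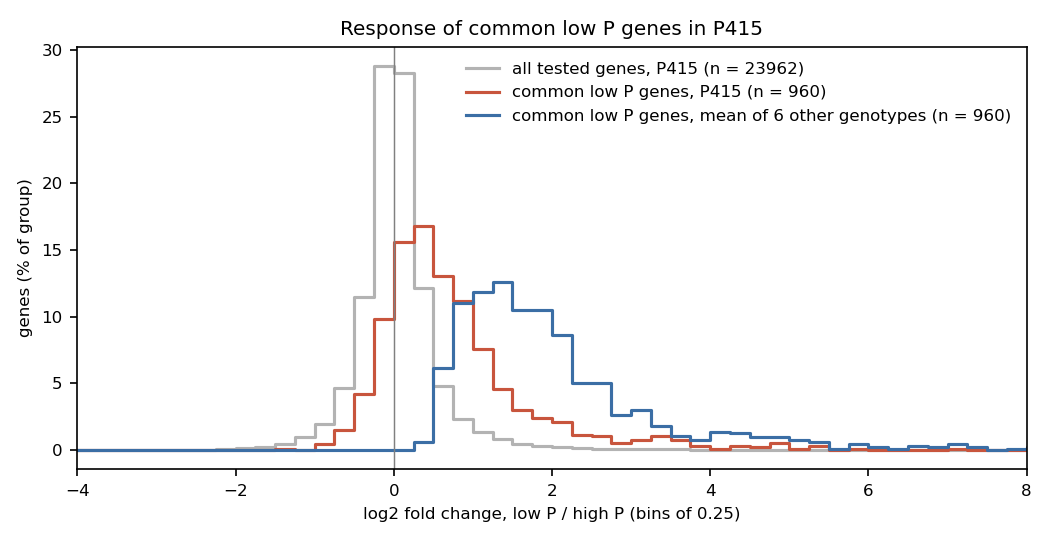
Share of genes (vertical axis, % of each group) by log2 fold change of low P against high P (horizontal axis, bins of 0.25), for the common low P genes in P415 and for the comparison groups named in the key. In P415 the common genes have a median of 0.53, between that of all tested genes at 0.01 and that of the first-table mean at 1.67. The first-table genotypes chose these genes for their rises.

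The 8 common genes with the largest mean rise in the first table all had higher low P than high P libraries in P415, without overlap, and 5 of them were called: Zm00001d005742, Zm00001d020589, Zm00001d021047, Zm00001d033047 and Zm00001d024600, described above. Zm00001d011443 had 2.72, 1.37 and 1.45 CPM at high P against 32.2, 170 and 46.1 CPM at low P, and its edgeR adjusted p was 0.0539. Low P 2 was far above the other low P libraries. Zm00001d004308 had 0, 0.0624 and 0.181 CPM against 1.72, 6 and 2.45 CPM (edgeR adjusted p = 0.104), and Zm00001d004134 had 0, 0.125 and 0 CPM against 1.35, 2.44 and 2.26 CPM (edgeR adjusted p = 0.0876). First-table low P means of these last genes were 67.1 to 157 CPM and 4.66 to 25.4 CPM, above every P415 library.

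Some common genes stayed flat in P415. A gene was called flat where the 95% interval of its log2 fold change in limma-voom lay wholly between -1 and 1, that is, within 2-fold. This held for 237 of the 960 common genes (24.7%), against 52.2% of all tested genes, while 680 were neither called nor flat and so undecided at this spread. In the flat genes the P415 log2 fold change ran from -0.42 to 0.57 with a median of 0.14. Their mean log2 fold change in the first table was 0.44 to 3.19 with a median of 1.04, and 125 of them rose there by at least 2-fold and 14 by at least 4-fold. The rule of choice itself sets the P415 response low and the first-table response high. In F7, 63 of the 237 were called higher and 18 lower (background 10.9% and 12.1%), and without F7 low P 2 the counts were 90 and 35. Against F7 alone, the P415 response was more negative for 56 of the 237 and more positive for 22 (background 9.29% and 8.73%). The same rule found 68 of the 237 flat in F7 and 61 in P024. The biological coefficient of variation was 0.372 in F7 and 0.599 in P024, against 0.337 in P415, and a larger spread widens the intervals. The share of all tested genes flat there was not computed. These counts therefore do not show that the other genes responded in F7 or P024.

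Zm00001d043680 had 15.8, 6.67 and 13.6 CPM at high P against 11.7, 13.5 and 8.86 CPM at low P in P415. The groups overlapped fully, and the 95% interval of the log2 fold change was -0.86 to 0.84 (limma-voom). In the first table its means went from 1.81 to 6.86 CPM at high P to 21.8 to 33.3 CPM at low P. It was also level in the other genotypes of the second table, with means of 13 and 12.4 CPM in F7 and of 10.7 and 10.5 CPM in P024.

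Zm00001d026285 had 35.6, 22.8 and 33.8 CPM at high P against 40.1, 44.3 and 33.6 CPM at low P, with a 95% interval of -0.16 to 0.91. First-table means were 5.83 to 26.2 CPM at high P, below the P415 high P mean of 30.7 ± 6.91 CPM, and 34 to 65.2 CPM at low P. P415 at high P was thus already above the high P means of all 6. F7 rose for this gene, from 11.6 to 42.2 CPM (edgeR adjusted p = 0.00286), and P024 had 38.9 and 47.4 CPM.

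Zm00001d011365 had 39.8, 33.4 and 24.7 CPM at high P against 45.4, 22.5 and 25.8 CPM at low P, with overlap and a 95% interval of -0.84 to 0.63. Its first-table means were 2.37 to 6.53 CPM at high P against 8.42 to 35.3 CPM at low P. Both P415 means were thus within the low P range of the first table. F7 was as level, with 24.4 and 28.7 CPM, and P024 lay lower, with 4.12 and 3.69 CPM.

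Zm00001d032186 had 113, 245 and 130 CPM at high P against 139, 204 and 197 CPM at low P, with overlap, against first-table high P means of 17.1 to 63.4 CPM and low P means of 61.3 to 390 CPM. Its F7 means were 474 CPM at high P against 276 CPM at low P, a difference that was not called (edgeR adjusted p = 0.0562). Zm00001d043839 had 35.9, 36 and 24.6 CPM against 26.4, 58.6 and 19.9 CPM in P415, where low P 2 was the highest and low P 3 the lowest of all 6. It rose in F7 from 13.8 to 45.1 CPM (edgeR adjusted p = 0.00468). Zm00001d028154 had 23.3, 19.1 and 18.4 CPM against 12.2, 20.3 and 16.4 CPM, above the first-table high P means of 2.23 to 10.6 CPM in every P415 library.

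The other flat genes named by size of their first-table rise had lower levels. P415 means went from 5.86 ± 0.811 to 5.52 ± 1.44 CPM in Zm00001d033671 and from 9.78 ± 0.583 to 10 ± 2.37 CPM in Zm00001d005964 (SD, n = 3). They went from 5.98 ± 1.28 to 4.73 ± 0.387 CPM in Zm00001d002530 and from 8.66 ± 3.24 to 8.65 ± 0.183 CPM in Zm00001d018033. Of the 10 flat genes named here, Zm00001d033671, Zm00001d026285 and Zm00001d043839 were called higher in F7. For none of the 10 did the P415 response pass the test against the mean of F7 and P024, so none is shown to be flat in P415 alone. Against F7 alone it passed for Zm00001d033671 and Zm00001d026285, with differences of -2.20 and -1.51 (joint edgeR model, adjusted p = 0.0445 and 0.0386).

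**Figure D5:**
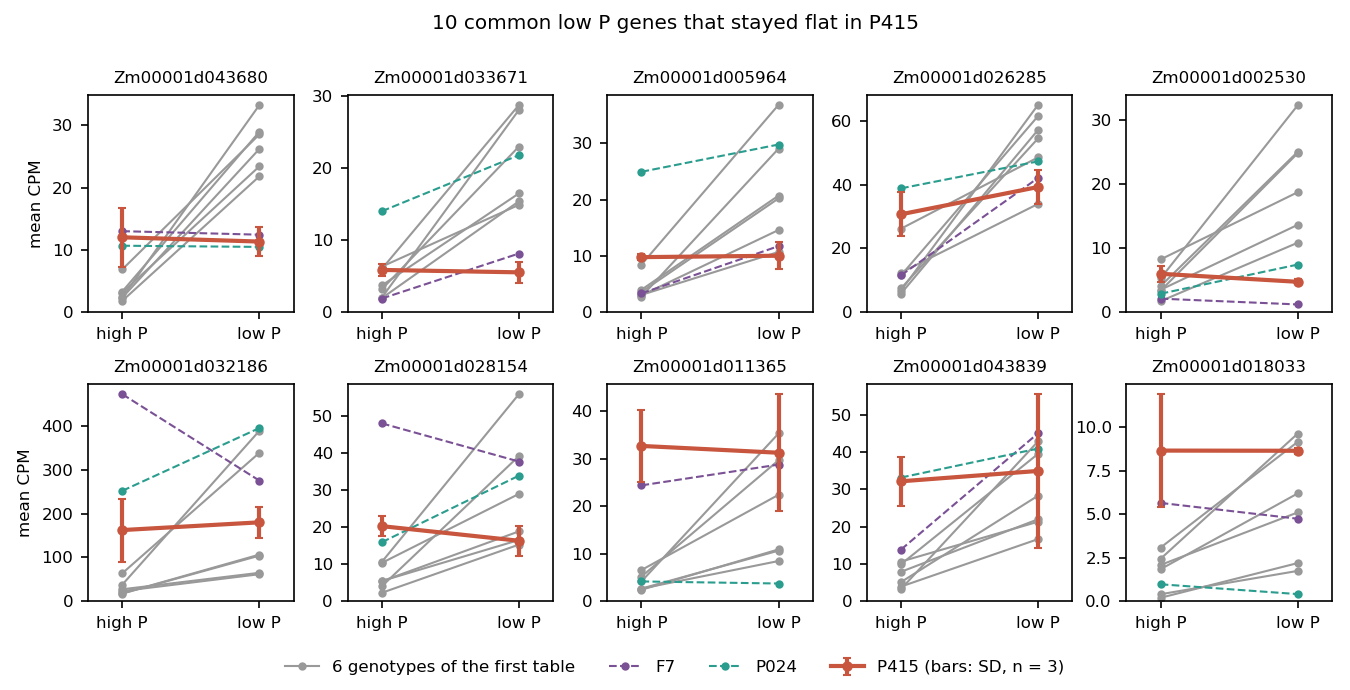
Mean CPM (vertical axes, starting at 0) at high and low P (horizontal axes) of 10 common low P genes that were flat in P415; P415 has SD bars (n = 3), grey lines are the 6 first-table genotypes, and dashed lines are F7 and P024. P415 stays level, as in Zm00001d011365 with 32.7 ± 7.6 CPM at high P against 31.2 ± 12.4 CPM at low P.

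The flat genes stood higher at high P in P415 than the common genes as a whole. These same P415 libraries chose the flat genes for a small difference between the P levels. That choice can itself raise their high P position, so the P415 values are given as a description. On a scale where the first-table mean at high P is 0 and at low P is 1, the median position over the 786 common genes that differed there by at least 2-fold was 0.0514 in P415 at high P and 0.434 at low P. Over the 125 flat genes among these it was 0.332 at high P and 0.478 at low P. This was not particular to P415, since the high P position of these 125 genes was 0.281 in F7 and 0.292 in P024, against 0.103 and 0.183 over the 786. At high P the P415 mean was above the high P means of all 6 first-table genotypes for 95 of the 237 flat genes (40.1%) and 293 of the 960 common genes (30.5%). The first share was 35.9% in F7 and 46% in P024 for the same 237 genes, beside 32.5% and 42.8% of the 960. The gap between the 237 and the 960 was thus wider in P415 than in F7 or P024. These positions span both tables, so that genotype and table cannot be told apart.

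The response of P415 differed from the mean of the other 8 genotypes for 710 of 29705 genes in the joint edgeR model, of which 241 were more positive (0.811%) and 469 more negative (1.58%). That model fits 1 spread per gene to all 54 libraries. The biological coefficient of variation was 0.337 in P415 but 0.14 in SF1 and 0.599 in P024. Its SE and p-values may thus be too small for P415. Within P415 it called 317 genes, against 49 by the fit of P415 alone. A joint fit of the second table called 15. Of the 960 common low P genes tested in P415, 239 were among the more negative and 1 among the more positive genes. The first-table libraries chose the common genes for their rises and supply 6 of the 8 genotypes, which sets this direction, and against F7 and P024 the split was 23 and 21. With the replicate block 1308 genes passed, 445 more positive and 863 more negative, and without P415 low P 2 1274 passed. Against the mean of F7 and P024, in the same table, 670 genes passed. For F7 alone the counts were larger, with 2593 genes more positive in P415 (8.73%) and 2761 more negative (9.29%).

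Zm00001d047681 went in P415 from 8.15, 7.42 and 9.46 CPM to 24.5, 55.5 and 35.7 CPM, without overlap, although its edgeR adjusted p within P415 was 0.0628. In the first table its log2 fold changes ran from -1.11 to -0.09, and 3 of the other genotypes were called lower. The contrast with the other 8 was 2.51 ± 0.25 (joint edgeR model, adjusted p = 2.78e-08), and with F7 and P024 1.78 (adjusted p = 0.000517). Zm00001d031657 had 25.6, 45.8 and 37.3 CPM at high P against 54.9, 45.6 and 82.4 CPM at low P, with overlap, and was called lower in 6 other genotypes. Its contrasts were 1.81 ± 0.26 and 2.06 (joint edgeR model, adjusted p = 3.73e-05 and 0.000161). Zm00001d019312 had 46.8, 34.7 and 59.8 CPM against 245, 51.2 and 334 CPM, so that low P 2 lay in the high P range while the other low P libraries were above it. It was called lower in 4 other genotypes, with a contrast of 3.08 ± 0.55 (joint edgeR model, adjusted p = 0.000882).

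Among the genes with a more negative response, Zm00001d043383 had 3.78, 2.12 and 2.65 CPM at high P against 3.86, 4.58 and 5.66 CPM at low P in P415. All low P libraries were above the high P libraries, by a small margin, while the first-table low P means were 17.8 to 39.7 CPM and 7 other genotypes were called higher. Its contrasts were -3.67 ± 0.44 with the other 8 and -1.97 with F7 and P024 (joint edgeR model, adjusted p = 2.96e-06 and 0.0238). Zm00001d012615 had 4.07, 1.25 and 4.34 CPM against 2.39, 4.69 and 3.46 CPM, with overlap, and was also called higher in 7 other genotypes. Its contrasts were -4.31 ± 0.54 and -2.44 (joint edgeR model, adjusted p = 4.52e-06 and 0.0238). Zm00001d012205 had 6.61, 7.48 and 6.81 CPM against 5.4, 5.41 and 5.97 CPM, with every low P library below every high P library. The contrasts were -2.13 ± 0.21 and -0.85 (joint edgeR model, adjusted p = 2.78e-08 and 0.0477). Zm00001d042874 and Zm00001d036981 passed against the other 8, with -1.26 and 0.91, but not against F7 and P024 (joint edgeR model, adjusted p = 0.21 and 0.192). P415 was level for both, with means of 94.9 and 104 CPM and of 38.5 and 40.7 CPM.

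Genes that fell in all 6 first-table genotypes showed 0 calls in P415. Of 268 such genes, 261 were tested and 0 were called lower by edgeR within P415, as were 0 of all 23962 tested genes (0%). The lack of calls is therefore not particular to these genes. At an unadjusted edgeR p under 0.05, 27 of the 261 were lower (10.3%) and 1 higher, beside 2.04% and 3.27% of all tested genes. DESeq2 called 3 lower (background 0.181%) and the joint edgeR model 1 (background 0.111%). Their median log2 fold change was -0.19 in P415 against -1.37 for the mean of the 6 that chose them, and it was negative for 191 (73.2%, against 48.8% of all tested genes). By the rule above, 131 (50.2%) were flat, near the 52.2% of all tested genes.

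Zm00001d025576 had 19.1, 26.7 and 17.2 CPM at high P against 15.5, 4.93 and 9.49 CPM at low P in P415. All low P libraries were below the high P libraries, with low P 2 the lowest, but the edgeR adjusted p was 0.859. In the first table means were 30.7 to 43.4 CPM at high P against 0.21 to 1.76 CPM at low P, and in F7 it was called higher, from 2.32 to 26.8 CPM. Its contrast was 2.86 with the other 8 but -2.82 with F7 and P024 (joint edgeR model, adjusted p = 0.0291 and 0.0629). Without P415 replicate 1, and without replicate 3, the contrast with the other 8 missed the threshold. Zm00001d009646 had 9.5, 11.9 and 22.9 CPM against 13.3, 6.12 and 9.11 CPM, and Zm00001d023400 had 11.9, 16.9 and 6.87 CPM against 22.8, 24.7 and 6.28 CPM. Both overlapped, while their first-table low P means were at most 5.83 and 0.488 CPM. Zm00001d011925 was near 1 CPM, with means of 1.45 ± 1.01 CPM at high P against 1.1 ± 0.848 CPM at low P (SD, n = 3).

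Of the organelle genes, 2 were tested in P415 and neither was called. The mitochondrial ribosomal RNA rrn18 had 16.4, 23.9 and 15 CPM at high P against 49.1, 30.9 and 27.8 CPM at low P. Its groups did not overlap, and its log2 fold change was 0.97 ± 0.29 (edgeR adjusted p = 0.617). The other, rrn26, had means of 164 ± 28.8 and 181 ± 28.8 CPM (SD, n = 3; edgeR adjusted p = 1).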

How the data were processed

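The submitters' processing notes name the tools HTSeq, HISAT2 and fastp, and B73 RefGen_v4 as the genome build. No source used here gives their versions or a strand setting, so overlapping, antisense and near-identical genes could not be told apart. The authors deposited raw read counts per gene in 2 tables of 46430 features, and matching FPKM tables. FPKM as deposited matched the counts after scaling by length and total in 171056 of 171056 P415 values (relative tolerance 0.001) and served only to rank levels per length. RNA came from roots, extracted with a plant RNA kit and made into libraries with an NEBNext kit, per the labels' protocols.

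Within each genotype, the low P libraries were tested against the high P libraries by edgeR 4.0.16 (R 4.3.3; TMM, filterByExpr, quasi-likelihood F-test, Benjamini-Hochberg, 0.05). With 3 libraries against 3, an exact permutation test of 1 gene cannot go below 0.1. The SE divides the log2 fold change by the square root of F and is approximate. A joint edgeR model of 54 libraries gave P415 response contrasts, and limma 3.58.1 (voom) the 95% intervals. The joint model fits 1 spread per gene over all genotypes, so its SE and p-values may be too small for P415. Alternatives used DESeq2 1.42.0, no filter, a filter at 1 CPM, other scaling, joint fits, a replicate block and each library left out. Replicate pairs differed by at least 27.4 in chi-square per degree of freedom within P415 (over genes of 20 or more counts) and were all kept apart. The replicate numbers come from the labels, which give them no meaning. Deviations from group means of same-numbered P415 libraries correlated at 0.167, 0.359 and 0.161. Those of differently numbered libraries correlated at -0.336 to 0.236, a range that holds the first and last of these values. The data thus do not settle a pairing, and the block is given only as an alternative fit. The fits were tested on simulated data.

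Genes were named by rule: the 20 largest called changes, the 8 largest common rises, the 10 flat genes and the 4 falls with the largest first-table change, and the 4 smallest p in each direction of the contrast, above a mean of 1 CPM (5 CPM for flat genes). The 20 called genes also had to show no overlap between low P and high P libraries. The members, lists and tests were chosen with earlier results of these data known.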

Additional observations from a re-analysis of the deposited data

Results flagged for a closer look

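The P415 response differed from the mean of the other 8 genotypes by a test of the difference itself (joint edgeR model, adjusted p under 0.05) for 710 genes and, among the genes named by rule, for those given here. The values are differences of log2 fold changes, P415 minus the other 8. The difference was -5.20 for Zm00001d020589, a gene called in P415. Among the flat genes it was -2.44 for Zm00001d043680, -2.33 for Zm00001d033671, -2.03 for Zm00001d005964, -1.69 for Zm00001d026285 and -2.15 for Zm00001d002530. It was -1.55 for Zm00001d032186, -2.08 for Zm00001d028154, -1.74 for Zm00001d011365 and -1.73 for Zm00001d043839. Flat genes were chosen for a low response in P415 and a high one in the first table, which fixes this direction. The differences of Zm00001d033671, Zm00001d002530 and Zm00001d032186 missed the threshold with any 1 P415 replicate number left out (joint edgeR model, adjusted p between 0.0678 and 0.228). Those of Zm00001d005964, Zm00001d026285 and Zm00001d043839 missed it without replicate 1 and without replicate 3, and that of Zm00001d028154 without replicate 1.

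Among the genes with the smallest p it was 2.51 for Zm00001d047681, 1.81 for Zm00001d031657, 0.91 for Zm00001d036981 and 3.08 for Zm00001d019312, and -2.13 for Zm00001d012205, -3.67 for Zm00001d043383, -1.26 for Zm00001d042874 and -4.31 for Zm00001d012615. Among the common falls it was 2.86 for Zm00001d025576, 3.49 for Zm00001d011925 and 3.90 for Zm00001d023400. The difference of Zm00001d023400 missed the threshold with any 1 P415 replicate number left out. That of Zm00001d025576 missed it without replicate 1 and without replicate 3, and that of Zm00001d011925 without replicate 3. The sign turned for Zm00001d025576 in its own count table, where the difference was -2.82 against F7 and P024 (adjusted p = 0.0629) and -4.60 against F7 alone (adjusted p = 0.00116; joint edgeR model).

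Against F7 and P024, from the same count table, the difference passed for Zm00001d047681 (1.78), Zm00001d031657 (2.06), Zm00001d019312 (3.36), Zm00001d012205 (-0.85), Zm00001d043383 (-1.97) and Zm00001d012615 (-2.44), and for none of the other genes given here. Against F7 alone it also passed for Zm00001d036981 (0.86), Zm00001d042874 (-0.71), Zm00001d026285 (-1.51) and Zm00001d033671 (-2.20), each with the sign of the difference from the other 8 (joint edgeR model, adjusted p = 0.00215, 0.0126, 0.0386 and 0.0445). For Zm00001d020589, Zm00001d043680, Zm00001d005964, Zm00001d002530, Zm00001d032186, Zm00001d028154, Zm00001d011365, Zm00001d043839, Zm00001d011925 and Zm00001d023400 neither of these differences passed, and genotype and count table cannot be told apart.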

How the results depend on the processing

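All 49 genes called in P415 had a positive log2 fold change in each of 15 other fits. They were called higher in these same libraries, without overlap, which largely sets this direction in advance. The number of calls did not hold. It was 323 with DESeq2, 317 in the joint fit of 54 libraries, 82 without a filter, 15 in the joint fit of the second table, 104 at a threshold of 0.1 (101 higher, 3 lower) and 1 to 62 with 1 library left out (1, 2 and 2 without high P 1, 2 and 3; 15 without low P 3). With the replicate block it was 49. Common low P genes called in P415 numbered 168 with DESeq2, 190 in the joint fit, 67 without a filter and 1 to 49 with 1 library left out (11 without low P 3, and 1, 1 and 2 without high P 1, 2 and 3). Common falls called lower numbered 3 with DESeq2 and 1 in the joint fit.

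Flat common genes numbered 154 to 281 with 1 library left out, 315 with the replicate block, 38 within 1.5-fold, 577 of 1736 (33.2%) for genes called in at least 5 of the 6 genotypes, and 63 of 363 (17.4%) for genes also called in F7. The contrast passed for 1761 genes against the first table, 1308 with the replicate block, 1274 without P415 low P 2, and 202, 871 and 282 without P415 replicate 1, 2 and 3. Against F7 and P024 it reversed to 0.21 for Zm00001d032186, -2.82 for Zm00001d025576, 0.12 for Zm00001d018595, 0.33 for Zm00001d022493, 1.54 for Zm00001d040014, 0.24 for Zm00001d043291 and 0.70 for Zm00001d043621, none of which passed. The replicate block ended 16 of the 49 calls, and of the contrasts of named genes it ended that of Zm00001d018595 (joint edgeR model, adjusted p = 0.0806). The causes of these shifts were not tested.

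With a biological coefficient of variation of 0.337 and 3 libraries a side, small changes could not be detected in P415, and the absence of a call does not show that a gene was unchanged. A count of 0 allows up to 0.189 CPM, for counting error only.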
